A study of Mus musculus with 8 samples.

Results

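The genes described here code for structural proteins of the hair shaft and of follicle layers around it. They are the hair keratins, the keratins of the inner root sheath, the companion layer and the infundibulum, and the keratin-associated proteins. They were chosen by symbol, from Krt25 to Krt28, Krt31 to Krt36, Krt71 to Krt75, Krt79, Krt81 to Krt87 and all numbered Krtap genes, wherever a probe set of the array carried exactly 1 gene symbol. This gave 65 of the 19935 genes measured, 21 keratins and 44 keratin-associated proteins, each with 1 probe set. The study compared 4 wild-type with 4 Adam10 knockout mouse skin samples on Affymetrix Mouse Gene 1.0 arrays, 1 array per sample. The sample titles mark the knockouts as cKO and carry P numbers of unstated meaning, and the labels give no strain, age, Cre driver or deleted exon. They call the material both skin and primary skin cells, and they do not say that each sample came from its own animal, so p-values measure the spread between these samples.

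Hair keratins pair as type I with type II chains into filaments of the shaft, and keratin-associated proteins, rich in cysteine or in glycine and tyrosine, form the matrix that binds those filaments. The inner root sheath is a cylinder of cells around the growing shaft, with its own type I keratins (Krt25 to Krt28) and type II keratins (Krt71 to Krt74), hardened by trichohyalin. The protease ADAM10 sheds the outer part of cell surface proteins, Notch receptors included, and the comparison addresses how products of the follicle differ without it. In bulk samples such as these, fewer cells of a type and less RNA per cell cannot be told apart.

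The targeted gene Adam10 averaged 7.28 ± 0.15 in the wild-type and 6.92 ± 0.12 in the knockout arrays (log2 intensity, SD, n = 4). The 4 knockout values lay below the 4 wild-type values, and the adjusted p of 0.064 missed the threshold of 0.05. The median probe set had an intensity of 13.3 to 15.1 on each array. Wild-type array 4 carried more signal of muscle, dermis and fat, and wild-type array 3 more of muscle and dermis, to a lesser degree. The summed intensity of 16 skeletal muscle markers was 328 to 8331 in wild type and 279 to 335 in knockout, that of 10 dermal fibroblast markers 1124 to 7670 against 1324 to 1461, and that of 11 adipocyte markers 217 to 3579 against 197 to 210, each highest on wild-type array 4. Among 10 markers of suprabasal epidermis, which define the labelled tissue, the sums overlapped at 19217 to 25301 and 20790 to 23145, with the lowest on wild-type array 4.

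Of the 65 genes, 3 passed the test, at an adjusted p under 0.05 in limma over all genes. The hair cuticle keratin Krt32 and the keratin-associated protein Krtap17-1 rose in the knockout, and the inner root sheath keratin Krt73 fell. Over all genes 6.41% were called higher and 2.34% lower, 8.75% in all, against 3.08% and 1.54% of these genes. At an unadjusted p under 0.05, 3 of the 65 were higher (4.62%, against 16.3% of all genes) and 8 lower (12.3%, against 8.8%). All 4 knockout values lay above all 4 wild-type values for Krt32, Krtap17-1 and Krt84 (4.62% of the set, 12.2% of all genes), and below them for Krt73, Krt33b and Krtap19-2 (4.62% of the set, 5.86% of all genes). The shares called or separated lay below those of all genes in both directions. Most of the set was dim, with 42 of the 65 below the median gene on all 8 arrays. Among the other 23, 2 were called higher and 1 lower, so the low shares are not a result about the brighter genes. Of the 65 differences 43 were below 0 (66.2%), with a median log2 difference of -0.06 beside 0.003 for all genes. This balance depended on scaling: 33 of 65 (50.8%) were below 0 with quantile normalization, 36 (55.4%) with cyclic loess and 21 (32.3%) with median centring, under which the median over all genes was 0.10.

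Promoters are shown for the genes that passed and for Krt71, a second type II keratin of the same sheath, because the pairs carry stretches of the same letters. The sequences are the 250 bases before the RefSeq start (assembly GRCm38.p6), read along the gene, all on the minus strand: chr15:101802361-101802610 for Krt73, chr15:101743098-101743347 for Krt71, chr11:100088270-100088519 for Krt32 and chr11:99993995-99994244 for Krtap17-1. Capitals mark a TATAAA that begins 40 to 20 bases before the start and every run of at least 9 bases that the promoters of Krt71 and Krt73, or those of Krt32 and Krtap17-1, share.
Krt73: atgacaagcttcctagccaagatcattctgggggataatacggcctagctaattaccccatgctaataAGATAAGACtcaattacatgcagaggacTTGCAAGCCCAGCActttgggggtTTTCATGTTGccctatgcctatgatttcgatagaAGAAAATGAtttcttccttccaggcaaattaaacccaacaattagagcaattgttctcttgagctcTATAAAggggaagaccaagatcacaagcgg
Krt71: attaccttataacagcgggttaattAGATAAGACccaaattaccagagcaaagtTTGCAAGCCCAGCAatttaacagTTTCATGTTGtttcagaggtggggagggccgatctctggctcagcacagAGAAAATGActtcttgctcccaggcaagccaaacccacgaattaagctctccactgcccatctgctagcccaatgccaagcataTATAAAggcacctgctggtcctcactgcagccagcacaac
Krt32: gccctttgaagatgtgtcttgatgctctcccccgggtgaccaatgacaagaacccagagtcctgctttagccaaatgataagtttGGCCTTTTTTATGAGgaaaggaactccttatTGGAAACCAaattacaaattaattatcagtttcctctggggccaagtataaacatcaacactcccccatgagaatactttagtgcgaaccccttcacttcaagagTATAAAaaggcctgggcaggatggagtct
Krtap17-1: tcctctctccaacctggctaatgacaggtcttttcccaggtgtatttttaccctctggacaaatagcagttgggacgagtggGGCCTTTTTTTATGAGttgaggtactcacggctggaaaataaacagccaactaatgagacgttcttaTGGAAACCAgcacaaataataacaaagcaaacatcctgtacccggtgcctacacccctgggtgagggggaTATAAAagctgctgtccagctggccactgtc

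Krt71 and Krt73, both in the type II keratin cluster of chromosome 15, share 4 such runs in the same order. The runs were picked after expression values were seen. Runs shared by a pair of promoters were sought on the gene's strand only, and counts of a run over promoters covered both strands. The longest, TTGCAAGCCCAGCA, has 14 bases and lies in 2 of 27025 mouse promoters of that length, these same genes. AGATAAGAC, which holds the letters AGATAA that GATA factors bind, stands in 0.141% of all promoters. The runs TTTCATGTTG and AGAAAATGA complete the set. Krt32 and Krtap17-1 are not of one gene family, yet both carry TTTTTTATGAG, starting at positions -161 and -163 from the start. This run of 11 bases lies in 9 of all promoters (0.0333%) and in no other of the 56 promoters of the set that were listed. It overlaps the run GGCCTTTTTT, and a further run, TGGAAACCA, stands in 0.4% of all promoters. Sharing 11 bases is not rare in itself: of 640 pairs of a keratin and a keratin-associated protein in the set, 29 (4.53%) had a common run of that length or more.

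The members share a feature of their promoters that their names did not fix. TATAAA, the core of the TATA box, was found on either strand in 43 of 56 promoters of the set (76.8%), in 12 of 16 keratins and 31 of 40 keratin-associated proteins, and in 13% of all 27025 promoters. In the window from 40 to 20 bases before the start it was found on the gene's strand in 31 of 56 (55.4%) and in 2.22% of all. AGATAA was in 23.2% of the set and in 10.3% of all promoters. Its matches were 9 keratin-associated proteins and 4 keratins, Krt25, Krt27, Krt71 and Krt73. The sheath keratins Krt26, Krt28 and Krt72 had none. TGGGAA, the core bound by the Notch partner RBPJ, was in 8 of the 56 (14.3%), Krtap17-1 among them, and in 21.5% of all, both strands searched. Genes of the set lie in clusters with near-identical copies and share ancestry, so these promoters are not independent of each other, and a match is a description of letters.

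Against 8.75% of all genes called, 1 of the 8 inner root sheath keratins passed the test, Krt73. This type II keratin, made in the cuticle of the inner root sheath, measured 5.96, 6.63, 5.80 and 6.75 in wild-type arrays 1 to 4 and 5.21, 5.22, 5.51 and 4.87 in knockout arrays 1 to 4 (log2 intensity). Every knockout value lay below every wild-type value. The mean log2 intensity fell by 1.08, from 6.29 ± 0.47 to 5.20 ± 0.26 (SD, n = 4), a 2.12-fold lower level (SE 0.22, 95% interval -1.58 to -0.59, adjusted p = 0.016). The call was lost without knockout array 2, where the difference was -1.09 and the adjusted p 0.058. Calls were fewer over all genes in that fit, 587 beside 1744 with all 8 arrays. It held without wild-type array 4 (-0.93, adjusted p = 0.018) and without wild-type arrays 3 and 4 (-1.10, adjusted p = 0.021).

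Its neighbours on the chromosome were dim, with Krt72 and Krt74 below the median gene on all 8 arrays and Krt2 at 2.60 to 3.44, so their differences say little about the transcripts. Krt72, next to Krt73 and a keratin of the same sheath, differed by -0.21 (95% interval -0.46 to 0.04), Krt2, on the other side and a keratin of epidermis, by 0.22 (-0.15 to 0.59), and Krt74, which RefSeq lists as a transcribed pseudogene in the mouse, by 0.18 (-0.04 to 0.39). Krt71, the main type II chain of the inner root sheath, measured 5.96, 6.0, 5.59 and 6.85 in wild type and 5.43, 4.92, 5.78 and 5.57 in knockout. The groups overlapped, and the difference of -0.68 (SE 0.26, 95% interval -1.25 to -0.10) had an adjusted p of 0.14.

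Among the type I partners, Krt25 measured 5.57, 5.82, 5.34 and 6.48 in wild type and 5.16, 5.04, 5.65 and 5.10 in knockout. Only knockout array 3 reached into the wild-type range, and the difference was -0.56 (SE 0.23, adjusted p = 0.16). Krt28 measured 4.67, 5.25, 4.85 and 5.80 against 4.48, 4.47, 5.24 and 4.23, with a difference of -0.54 (SE 0.27, adjusted p = 0.24). Krt27 stayed between 5.35 and 5.47 in the knockout and between 5.04 and 6.08 in wild type, a difference of -0.06 with a 95% interval of -0.48 to 0.37. Krt26, below the median gene on all 8 arrays, differed by -0.16 (-0.51 to 0.20). None of the 4 type I sheath keratins passed in limma, and Krt25 alone had an unadjusted p under 0.05.

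As a group, 7 of the 8 inner root sheath keratins had differences below 0, with a median of -0.38 beside 0.003 for all genes. The median stayed below 0 under every scaling tried, at -0.33 with quantile normalization, -0.36 with cyclic loess and -0.27 with median centring. The last of these stood beside a median over all genes of 0.10. Their SD had a median of 0.46 in wild type and 0.26 in knockout, and 7 of 8 were highest on wild-type array 4, the array with the most muscle, fat and dermal signal. Without that array the median of the 8 was -0.24 and Krt27 changed sign to 0.15, and without wild-type arrays 3 and 4 it was -0.23. The part of that array's tissue content in the result was not tested. Within the knockout, array 3 was highest for Krt25, Krt28, Krt71 and Krt73.

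**Figure D1:**
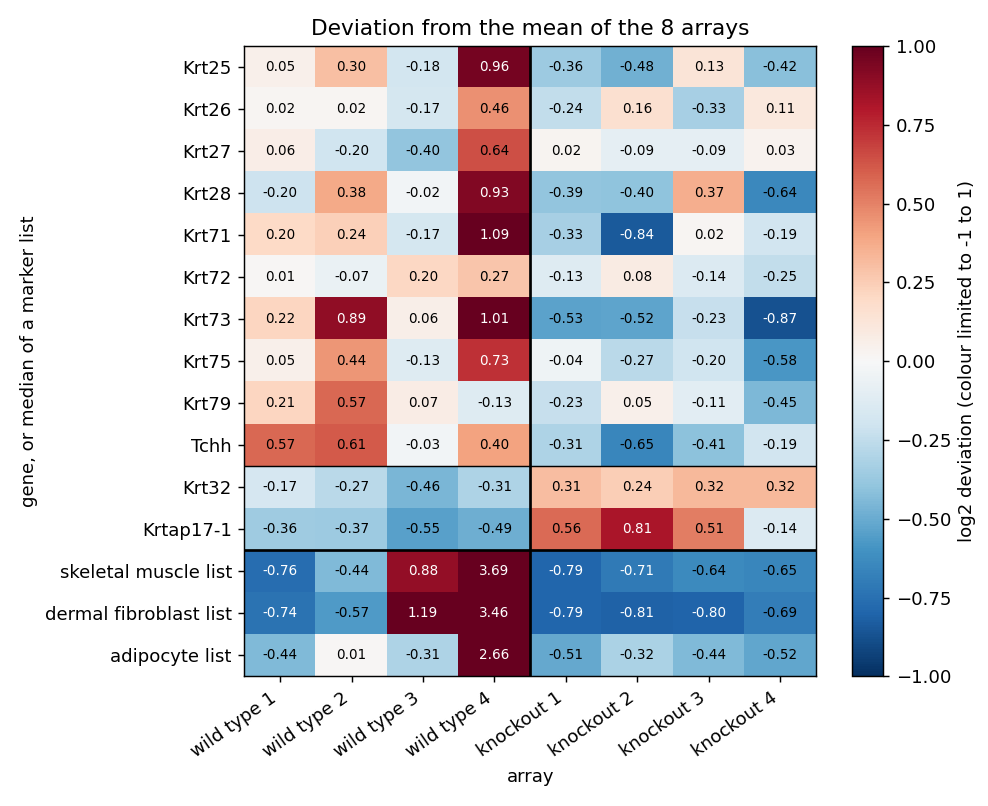
Log2 deviation of inner root sheath keratins other than Krt74, of Krt75, Krt79, Tchh, Krt32 and Krtap17-1 from its own mean over the 8 arrays (columns), with the median deviation of 3 marker lists of other tissues below the heavy line; colour is limited to the range -1 to 1 and the number in each cell is the value. Krt25, Krt28, Krt71 and Krt73 are highest on wild-type array 4, where the skeletal muscle list is at 3.69, while Krt32 is above 0 on the 4 knockout arrays.

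Trichohyalin and the enzymes that act on it were measured beside their keratins. Tchh, which fills the granules of inner root sheath cells, measured 6.43, 6.47, 5.83 and 6.26 in wild type and 5.55, 5.21, 5.45 and 5.67 in knockout. No value overlapped, and log2 intensity of Tchh fell by 0.78 with an SE of 0.16 (adjusted p = 0.015). The call was lost without knockout array 2 (-0.69, adjusted p = 0.058) and held without wild-type arrays 3 and 4 (-0.98, adjusted p = 0.0086). Tchh was the 1 called gene of 15 measured in a list of 16 other structural and processing proteins of shaft and sheath. Over all genes 8.75% were called. Tgm3, the transglutaminase that cross-links trichohyalin, differed by -0.72 (adjusted p = 0.073), and the deiminases Padi3 and Padi1 by -0.27 (adjusted p = 0.18) and -0.09 (adjusted p = 0.78). Hephl1, of the same list, differed by 0.53 (adjusted p = 0.12). Tgm3 passed when wild-type array 4 was left out (-0.95, adjusted p = 0.0036). The list's median was -0.11, with 10 of 15 below 0, and 0 to 3 fell with 1 array left out.

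The keratins of companion layer and infundibulum had lower means too, without passing. Krt75, of the companion layer between inner and outer sheath, measured 4.89, 5.28, 4.71 and 5.57 against 4.80, 4.57, 4.64 and 4.26, a difference of -0.54 (95% interval -0.96 to -0.13, adjusted p = 0.10). Krt79, of the infundibulum and the sebaceous duct, measured 9.15, 9.51, 9.01 and 8.81 against 8.71, 8.99, 8.83 and 8.49, a difference of -0.37 (-0.72 to -0.01, adjusted p = 0.19). For Krt79 wild-type array 4 was the lowest of its group, and without arrays 3 and 4 the difference was -0.58 (adjusted p = 0.079). In the sebaceous gland, which opens through that duct, 3 of 11 listed genes measured fell, against 2.34% of all genes. The fatty acid elongase Elovl3 fell by 1.02 (adjusted p = 0.014), the fatty acid hydroxylase Fa2h by 0.69 (adjusted p = 0.034) and the reductase Far2 by 0.59 (adjusted p = 0.044). With 1 array left out the count ran from 0 to 4: it was 0 without knockout array 2, and 1 without wild-type array 1 or 2 or knockout array 1 or 3. It was also 1 with a pseudocount of 16. Fa2h and Far2 each lost the call in 6 of the 8 fits. Elovl3, at 2.19 to 4.05 over the arrays, and Fa2h, at 2.57 to 3.79, were dim, below the median gene on all 8.

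**Figure D2:**
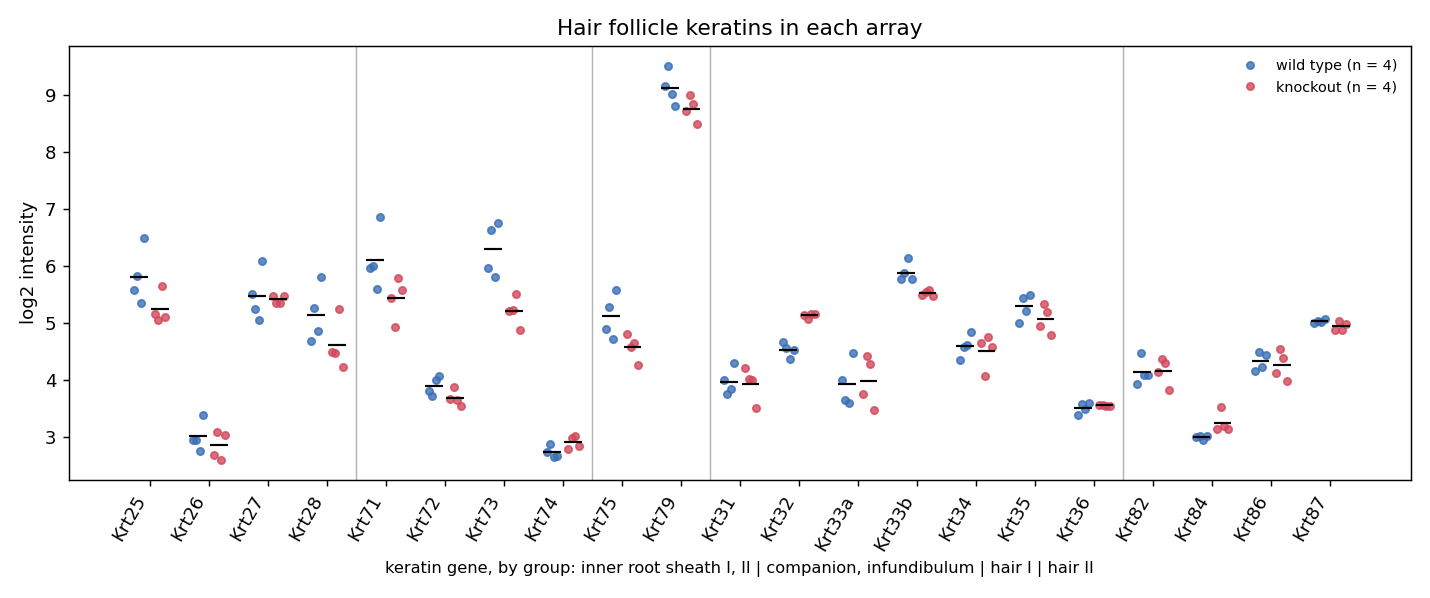
Log2 intensity (vertical axis) of each of the 21 keratins in the 4 wild-type and 4 knockout arrays, one point per array, with bars at group means and grey lines between keratin groups. Krt73 separates downward and Krt32 upward in the knockout, while most hair keratins overlap.

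Of the 11 hair keratins of both types, and beside 8.75% of all genes called, 1 passed, Krt32. This type I keratin of the hair cuticle measured 4.66, 4.56, 4.37 and 4.52 in wild type and 5.14, 5.07, 5.15 and 5.15 in knockout. The groups were separate and each was tight, and in wild type Krt32 lay near the median gene, below it on 2 arrays. Log2 intensity of Krt32 rose by 0.60, from 4.53 ± 0.12 to 5.13 ± 0.04 (SD, n = 4), or 1.51-fold (SE 0.09, 95% interval 0.39 to 0.80, adjusted p = 0.0054). It kept its call without any 1 of the 8 arrays (highest adjusted p 0.022) and without wild-type arrays 3 and 4 (0.52, adjusted p = 0.032). With a pseudocount of 16 the difference was 0.38, still called. Its neighbours Krt31 and Krt35 differed by -0.04 (95% interval -0.41 to 0.33) and -0.22 (-0.55 to 0.10).

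Krt33b, a type I keratin of the hair cortex, had lower values in the knockout. Its values of 5.76, 5.87, 6.13 and 5.76 in wild type lay above the 5.48, 5.54, 5.57 and 5.47 of the knockout. The difference of -0.37 (SE 0.10, 95% interval -0.60 to -0.13) had an adjusted p of 0.056 and missed the threshold, and it passed without wild-type array 4 (-0.41, adjusted p = 0.041). The cortex keratins Krt31, Krt33a and Krt34 differed by -0.04, 0.05 and -0.08, and Krt36 by 0.03. For Krt33a the 95% interval ran from -0.48 to 0.59, with knockout arrays 2 and 3 at 4.42 and 4.27 and knockout arrays 1 and 4 at 3.75 and 3.47.

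None of the 4 type II hair keratins with a probe set of their own passed in limma, and Krt84 alone had an unadjusted p under 0.05. Krt82, of the hair cuticle as Krt32 is, measured 3.92, 4.47, 4.08 and 4.09 against 4.14, 4.37, 4.29 and 3.81, a difference of 0.01 (95% interval -0.32 to 0.35). Krt86, of the cortex, differed by -0.07 (-0.38 to 0.24) and Krt87 by -0.08 (-0.27 to 0.11). Krt84 was low, at 2.94 to 3.01 in wild type and 3.13 to 3.52 in knockout. Its values did not overlap, and the difference of 0.25 had an adjusted p of 0.17. Over both types, 5 of 11 hair keratins were above 0 and 6 below, with a median of -0.04 that turned to 0.05 with quantile normalization, 0.01 with cyclic loess and 0.06 with median centring. Under median centring the median over all genes was 0.10, above that of the hair keratins. The 95% interval of each of the 11 lay between -1 and 1 on the scale of intensity, and 4 of them, Krt31, Krt33a, Krt36 and Krt84, were below the median gene on all 8 arrays.

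**Figure D3:**
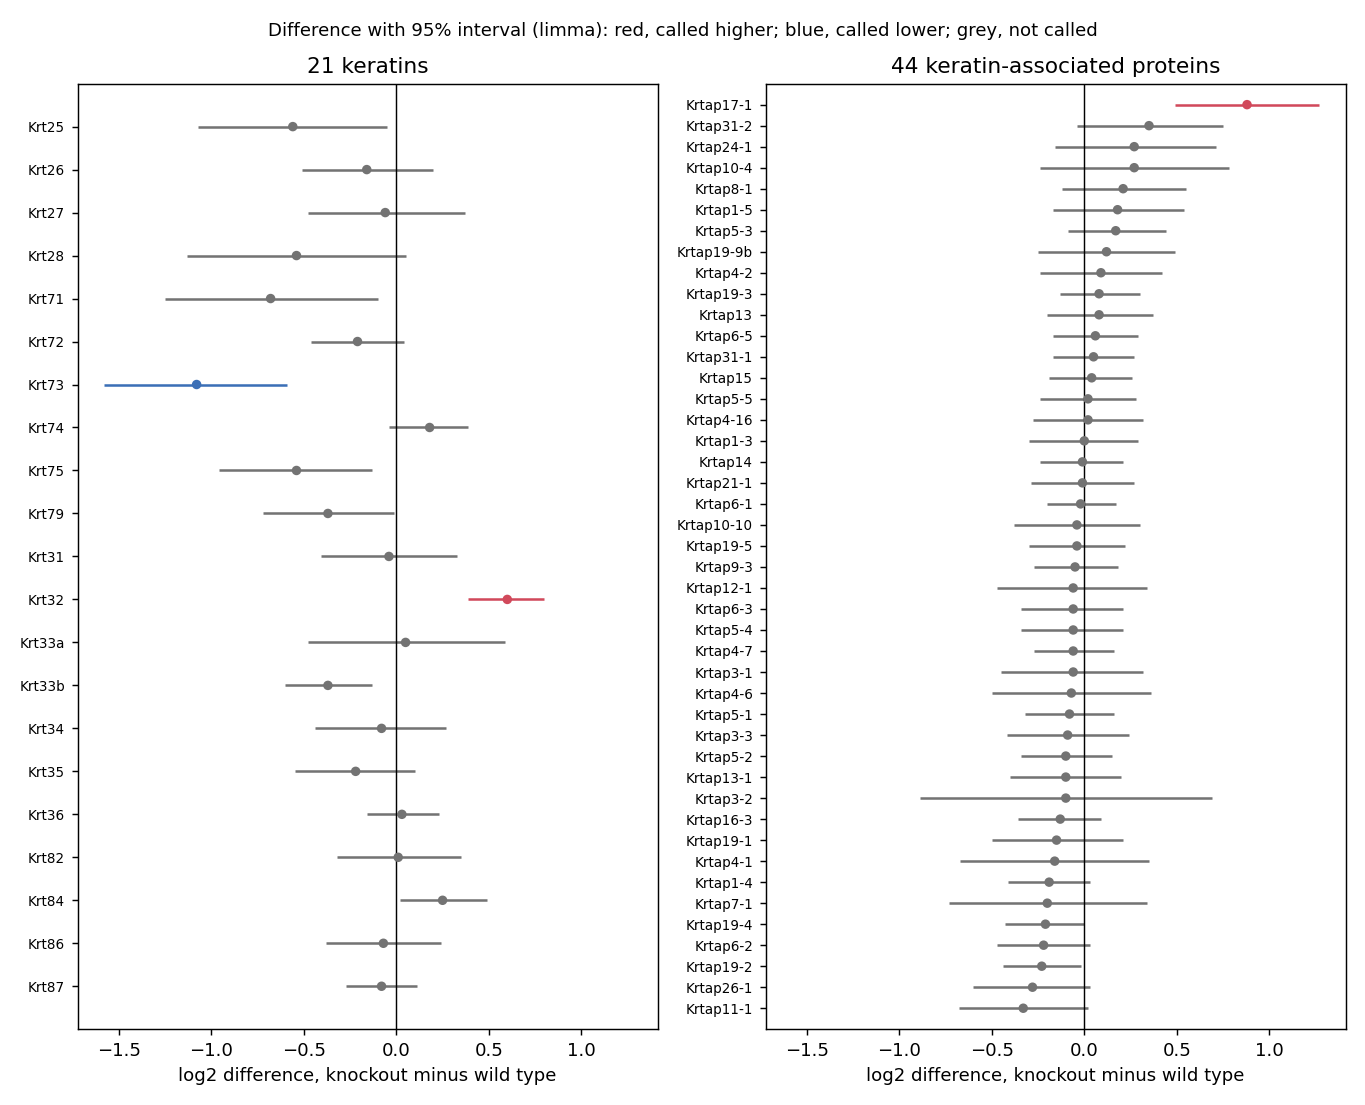
Log2 difference, knockout minus wild type (horizontal axis), with its 95% interval from limma, for the 21 keratins in group order and the 44 keratin-associated proteins in order of the difference. Krt32 and Krtap17-1 are called higher and Krt73 lower, and 43 of the 44 intervals on the right stay within -1 to 1.

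Of the 44 keratin-associated proteins, 1 passed, against 8.75% of all genes. Krtap17-1 measured 7.30, 7.29, 7.11 and 7.17 in wild type and 8.22, 8.47, 8.17 and 7.52 in knockout. Knockout array 4 lay closest to wild type, and the groups did not overlap. Krtap17-1 rose by 0.88, from 7.22 ± 0.09 to 8.10 ± 0.40 (SD, n = 4), or 1.84-fold (SE 0.18, 95% interval 0.49 to 1.27, adjusted p = 0.016). It lost its call without wild-type array 3, knockout array 2 or knockout array 3, with adjusted p-values up to 0.053, and without wild-type arrays 3 and 4 together (0.80, adjusted p = 0.074). Next to it on the chromosome, Krt33a and Krt33b differed by 0.05 and -0.37.

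The other 43 keratin-associated proteins came from 20 families and had differences between -0.33 and 0.35. None was called in limma, and 2 were lower at an unadjusted p under 0.05. The median of all 44 was -0.05, and 0.02 with quantile normalization and 0.06 with median centring. The median over all genes was 0.10 under median centring. The largest after Krtap17-1 were Krtap31-2 at 0.35 (95% interval -0.04 to 0.75) and Krtap11-1 at -0.33 (-0.68 to 0.02). Krtap3-2 varied most between samples of one group, at 8.56, 7.86, 7.02 and 6.82 in wild type and 7.38, 7.18, 7.20 and 8.09 in knockout. Its difference of -0.10 had the interval -0.89 to 0.69, and it was -0.74 (adjusted p = 0.16) without wild-type arrays 3 and 4. Family 4, with 5 genes, spanned -0.16 to 0.09, family 5 with 5 genes -0.10 to 0.17, family 6 with 4 genes -0.22 to 0.06 and family 19 with 6 genes -0.23 to 0.12. Paralogs in these families are near copies, and probes may be shared between them.

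Most of these transcripts were dim. On all 8 arrays 35 of the 44 keratin-associated proteins and 7 of the 21 keratins lay below the median gene of their array, and 19 of the 44 lay below the 25th percentile. At such levels intensity moves little with the transcript, so a difference near 0 does not show that the transcript was alike. A further 15 probe sets carry a set member's symbol together with symbols of other genes and were left out of the set. In a fit over all 35519 probe sets 0 of the 15 passed, with differences between -0.13 and 0.13 and a smallest adjusted p of 0.56 (unadjusted 0.26).

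**Figure D4:**
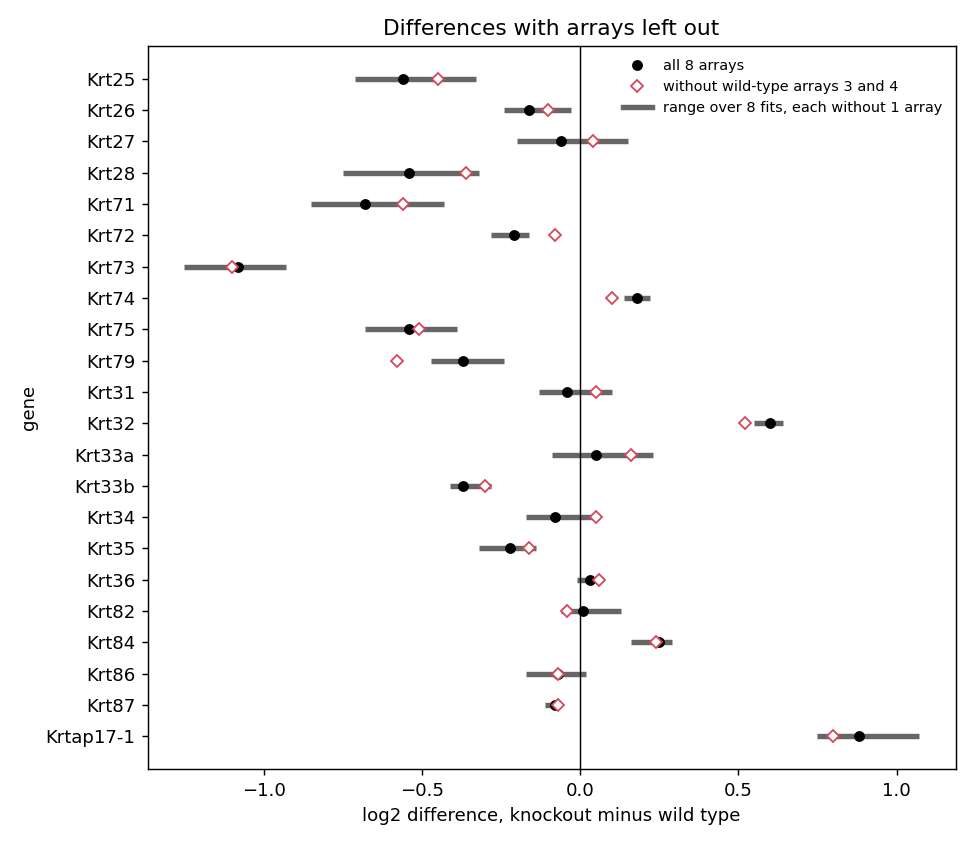
Log2 difference of the 21 keratins and Krtap17-1 with all 8 arrays (black), its range over 8 fits that each leave out 1 array (grey bar) and its value without wild-type arrays 3 and 4 (open diamond). Krt73 stays between -1.25 and -0.93, Krt32 between 0.55 and 0.64 and Krtap17-1 between 0.75 and 1.07 with 1 array left out.

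Factors that drive hair differentiation were measured beside their products. Of 22 listed transcription factors and signals of the hair lineage 4 rose and 0 fell, against 6.41% higher and 2.34% lower over all genes. Differences were above 0 for 21 of the 22, with a median of 0.35 beside 0.003 for all genes. The signal Wnt10b rose by 0.58 (adjusted p = 0.014), the transcription factor Ovol1 by 0.59 (adjusted p = 0.021), Lef1, the nuclear effector of Wnt signals in the hair matrix, by 0.61 (adjusted p = 0.039) and Dlx3, which acts in matrix and shaft, by 0.45 (adjusted p = 0.036). Lef1 lost its call in 5 of 8 fits with 1 array left out, Ovol1 in 4, Dlx3 in 7 and Wnt10b in 1, and without wild-type arrays 3 and 4 none of the 4 passed (adjusted p 0.053 to 0.14). The count was 0 without knockout array 2 and 1 without wild-type array 3 or knockout array 1 or 3. The summed intensity of the list was 1365 to 1971 in wild type and 2207 to 2501 in knockout, lowest on wild-type array 4. Hoxc13, a direct activator of hair keratin genes, measured 3.82, 3.60, 3.86 and 3.87 against 4.29, 4.52, 4.02 and 4.05. Its values did not overlap, and the difference of 0.43 missed the threshold (adjusted p = 0.064). Foxn1, needed for shaft keratin expression, differed by 0.19, Msx2 by 0.09 and Gata3, a factor of the inner root sheath, by 0.33, none of them called.

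Other compartments of the follicle and epidermis were set beside the shaft genes from lists. Over all genes 6.41% were called higher and 2.34% lower. Of 17 genes of outer root sheath and follicle stem cells 11 rose, led by the stress keratins Krt16 (3.66), Krt6b (2.96) and Krt6a (2.84), with Krt17, Krt14 and Dkk3 at 0.63, 0.63 and 0.62. The others called higher were Lgr6 (0.81), Sox9 (0.65), Lhx2 (0.65), Krt15 (0.46) and Krt5 (0.37). Lgr5 (0.47, adjusted p = 0.12), Nfatc1 (0.36, adjusted p = 0.17), Tcf7l1 (0.32, adjusted p = 0.088) and Tbx1 (0.13, adjusted p = 0.60) were not called. With 1 array left out 5 to 10 of the 17 rose: 5 when knockout array 2 was left out, 6 for wild-type array 3 and 7 for knockout array 3 or 4. Without wild-type arrays 3 and 4 the count was 5 higher and 1 lower, the latter Cd34. The stem cell marker Cd34 measured 3.95, 3.92, 4.77 and 8.0 in wild type and 3.62, 3.19, 3.19 and 3.39 in knockout. Its values did not overlap, with wild-type array 4 far above the rest and wild-type array 3 next, the arrays with more dermal signal. The part of tissue content in this was not tested. The difference of -1.81 had an adjusted p of 0.16. Without wild-type array 4 Cd34 passed at -0.87 (adjusted p = 0.023). On wild-type arrays 1 and 2 and on the knockout arrays Cd34 was dim, below the median gene. Postn, of the same list, differed by -0.21 (adjusted p = 0.48). Cd34 and Postn were the 2 of the 17 with differences below 0, and 15 lay above. Of 14 mitosis genes 10 rose, with a median of 0.53, and 6 did with cyclic loess or without knockout array 2. Of 10 pigment cell genes 6 rose, and Mc1r, the melanocortin receptor of hair pigment cells, rose by 1.33 (adjusted p = 0.00077). In the dermal papilla list of 12, Sox2 fell by 0.35 and Alx4 by 0.34, but none passed with any of the 3 normalizations tried, in 6 of the 8 fits with 1 array left out (all but those without wild-type array 1 or 4), or without wild-type arrays 3 and 4. Sox2, at 3.52 to 4.07, and Alx4, at 3.73 to 4.3, were dim, below the median gene on all 8 arrays. In the list of suprabasal epidermis 0 of 10 passed, with 3 at an unadjusted p under 0.05. None of the muscle, adipocyte and fibroblast markers passed, although 2, 2 and 4 of them had an unadjusted p under 0.05.

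**Figure D5:**
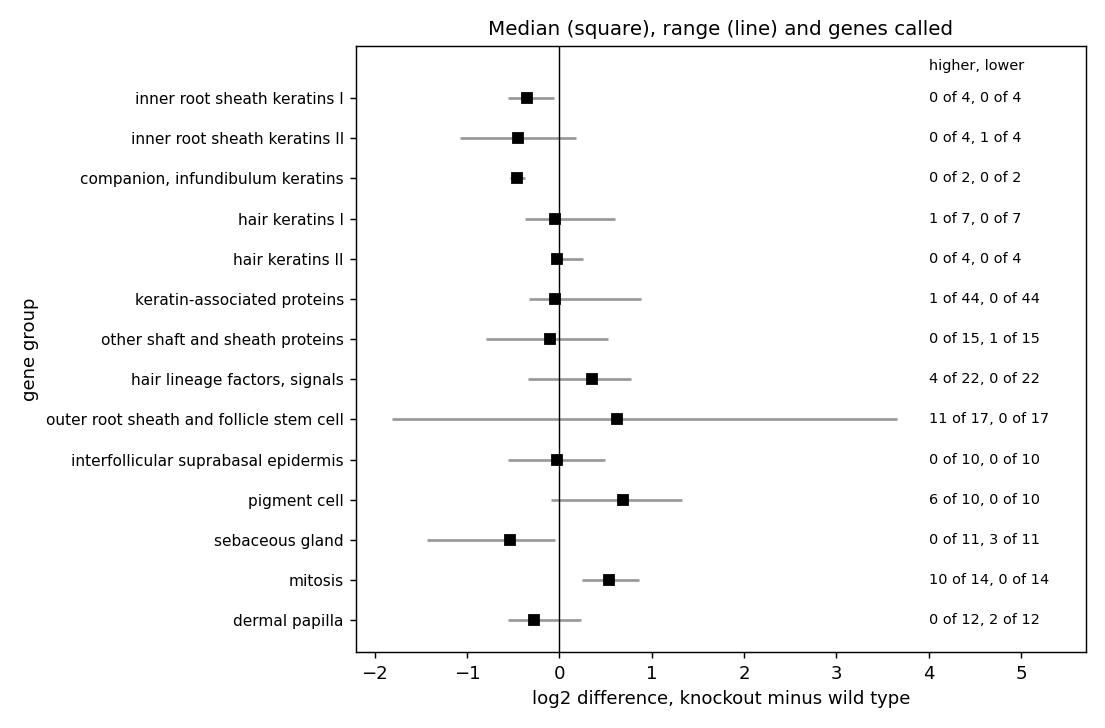
Median (square) and range (line) of the log2 difference, knockout minus wild type, over the genes of each group, with the number called higher and lower of those measured at the right. Inner root sheath groups have medians of -0.35 and -0.44, hair keratins and keratin-associated proteins lie near 0, and the lists of lineage factors, outer root sheath, pigment and mitosis lie above 0.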

How the data were processed

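Intensities of 35519 probe sets on 8 arrays were deposited by the authors, who name RMA, a robust multi-array summary, per the submitters' processing notes. For its version, its settings and the build: not given in the sources used here. The values ran from 0.817 to 11173, so they were read as linear and log2 was taken with no pseudocount. Arrays give no depth, and their number limits the precision. Probe sets with 1 gene symbol in the platform annotation (21780, with 1605 of several and 12134 of none) were kept, the one with the highest mean per gene. All 65 symbols of the set matched RefSeq through Entrez identifiers, and 56 had a promoter in the RefSeq table.

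Knockout was compared with wild type by limma 3.58.1 in R 4.3.3 (lmFit, eBayes), two-sided. P-values were adjusted by Benjamini and Hochberg's method across the 19935 genes, with calls at 0.05. Every adjusted p is from limma. The fit was also run on simulated arrays with independent noise, which lack the uneven muscle, fat and dermal signal of the wild-type arrays. That run cannot show how the fit behaves under such signal. No protein table was used here, so the planned classes of keratin-associated proteins by composition were not formed. The genes named are those that passed, all keratins, the 3 keratin-associated proteins with the largest differences and the 2 with the highest means, and from each list up to 6 that passed, with Adam10, Hoxc13, Foxn1, Dlx3, Msx2, Lef1 and Gata3 always. Tgm3, Padi3, Padi1, Hephl1, Cd34, Postn, Krtap19-2, Krtap19-4 and Krt2 were named after their values were seen. So were Lgr6, Sox9, Lhx2, Krt15, Krt5, Lgr5, Nfatc1, Tcf7l1 and Tbx1, and the shared promoter runs. The genes of the set and the lists were chosen with earlier results of these data known. Alternatives were 3 normalizations, a filter on dim genes, a pseudocount of 16, the mean of probe sets, a trended robust prior, array weights, a threshold of 0.10, and arrays left out.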

Additional observations from a re-analysis of the deposited data

Results flagged for a closer look

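Single arrays stood apart within a group for 7 of 124 groups of 4 values checked among the genes named, and chance gives about 1 in 20. Krt84 was at 2.94 on wild-type array 3 against 3.00 to 3.01 on the others, and at 3.52 on knockout array 2 against 3.13 to 3.18. Adam10 was at 7.06 on wild-type array 3, below 7.33 to 7.39 on the others. Plk1, a mitotic kinase, was at 7.33 on knockout array 3 against 7.13 to 7.16. Gpnmb, of melanosomes, was at 4.69 on wild-type array 4 against 5.11 to 5.16, and at 5.63 on knockout array 4 against 6.33 to 6.40. Foxn1 was at 4.50 on wild-type array 4 against 5.03 to 5.09, and without that array its difference was 0.05.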

How the results depend on the processing

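The rises of Krt32 and Krtap17-1 and the fall of Krt73 passed under each of the 9 alternatives that used all 8 arrays. Among them, the threshold of 0.10 is looser and was applied to the main fit, so it could not remove a call. The mean of probe sets left the values of these genes unchanged, because each has 1 probe set. Those alternatives therefore did not test the calls. With 1 array left out the number called over all genes also moved. It ran from 587 without knockout array 2 to 1997 without wild-type array 4, beside 1744 with all 8 arrays. A call or count lost in such a fit therefore need not mean a smaller difference. The count of 2 rises went to 1 to 2 with 1 array left out and to 1 without wild-type arrays 3 and 4, where Krt32 passed. The count of 1 fall went to 0 to 2 with 1 array left out. It was 2 with quantile normalization, cyclic loess, dim genes left out, the pseudocount of 16, the trended robust prior or the threshold of 0.10, with Krt33b as the second gene, and 3 with array weights, with Krtap19-4 as the third. Median centring moved the median of all genes to 0.10, and the median of the 21 keratins from -0.08 to 0.02.

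With 1 array left out, 31 of the 65 differences took both signs, 7 in keratins and 24 in keratin-associated proteins. Of the genes that the naming rule gave, uncalled values changed sign as follows. Median centring subtracts a single value from each array, so it moved the difference of every gene by the same amount. The median over all genes was then 0.10. With median centring the difference of Krt27 was 0.04, Krt31 was 0.06, Krt34 was 0.02, Krt86 was 0.03, Krt87 was 0.02 and Krtap3-2 was 0.0012. With array weights the difference of Krt27 was 0.17, Krt31 was 0.14 and Krt86 was 0.02. Without wild-type arrays 3 and 4 the difference of Krt27 was 0.04, Krt31 was 0.05, Krt34 was 0.05 and Krt82 was -0.04. With quantile normalization the difference of Krt31 was 0.05 and Krt86 was 0.0049. With cyclic loess the difference of Krt31 was 0.01. With 1 array left out the difference ran from -0.20 to 0.15 for Krt27, from -0.13 to 0.10 for Krt31, from -0.09 to 0.23 for Krt33a, from -0.17 to 0.06 for Krt34, from -0.01 to 0.06 for Krt36, from -0.06 to 0.13 for Krt82, from -0.17 to 0.02 for Krt86 and from -0.35 to 0.23 for Krtap3-2. For settings other than median centring, the cause of the changes of sign was not tested. No paired analysis was possible because the labels give no replicate numbers that the genotypes share. Without detection calls, how far dim probe sets lie above background is not known.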
